A study of Homo sapiens with 6 samples.

Results

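The E2F transcription factors and the genes of DNA replication were examined in U2OS cells treated with etoposide. The set holds 34 genes, chosen as a list by symbol, of the 67140 genes in the etoposide count tables, and each symbol matched 1 Ensembl gene. The series holds 6 RNA-Seq libraries of U2OS, a human osteosarcoma line with a wild-type label for genotype, with 2 libraries in each of 3 groups. One group was left untreated, one was exposed for 4 h to adriamycin (1.5 μg/ml) and one for 4 h to etoposide (100 μM). Both drugs poison topoisomerase II, the enzyme that passes one DNA duplex through another. The tables as read for the untreated and adriamycin groups list 220 to 292 genes per library and none of the 34. That is a small part of the 67140 genes in the etoposide tables, so a missing gene says nothing about its expression in those groups. The 34 genes were not analysed there, so no treatment was compared here and all values are levels in etoposide-treated cells. Whether any of these levels differs from untreated cells was therefore not tested here. The study reports from its own gene set analysis that both drugs activated pathways it relates to DNA damage stress, E2F targets among them. The study calls its RNA-Seq replicates technical, a word it uses elsewhere for cells cultured and processed independently, and the labels do not say whether the 2 etoposide libraries came from separate cultures, so the spread between them may be technical.

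In G1, the retinoblastoma protein and its relatives hold E2F factors in check on the promoters of S-phase genes. Cyclin E with CDK2 inactivates these pocket proteins, and the activator E2Fs then switch on the genes for origin licensing, the replicative helicase, the polymerases and the supply of deoxynucleotides. The atypical factors E2F7 and E2F8, themselves products of this programme, later repress the same promoters. E2F7, PCNA and the ribonucleotide reductase subunit gene RRM2B are also known targets of p53.

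The etoposide libraries held 21450766 and 14244235 counts, of which the 34 genes took 0.616% and 0.603%. Each of the 34 genes had at least 348 counts in both libraries, so all 34 are among the 17207 genes that reached 10 counts in each. The labels name bone as the tissue and epithelial as the cell type. COL1A1, a collagen gene of bone matrix, was at 1323 and 1413 TPM (counts per exon length, scaled to the same total in each library) and the keratin gene KRT8 at 469 and 433 TPM. SPARC, VIM and KRT18 were also high, at 856 and 843, 568 and 534, and 258 and 245 TPM. Several other defining markers were close to absent, with 5 and 2 counts for COL1A2, 5 and 3 for the osteoblast factor SP7, 1 and 0 for KRT19 and 30 and 20 for CDH1. Of the 9 bone and mesenchymal markers 5 had at least 10 counts in both libraries and summed to 2763 and 2804 TPM, and of the 8 epithelial markers 7 did, with sums of 774 and 718 TPM. The 6 markers of blood and endothelial cells summed to 0.699 and 1.09 TPM, and 1 of them, PECAM1, had at least 10 counts in both libraries.

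The genes were chosen by symbol and not by a search of their promoters. The list is, however, one of E2F factors and of replication genes known to be switched on by them. A high share with an E2F motif is therefore partly built into the choice and is no independent result. The windows of 250 bases before and 50 bases after annotated start sites, from RefSeq on GRCh38.p14, were searched on both strands for the E2F motif in 4 spellings, TTTCCCGC, TTTCGCGC, TTTGCCGC and TTTGGCGC. A window was found for 30 of the 34 genes, and for E2F8, CCNE2, MCM4 and MCM5 none was matched. Of these 30 genes 19 held the motif (63.3%), while 3.99% of the 27305 genes with a window did. In the other 56 genes of the pathway described below, 13 of the 44 with a window held it (29.5%). The motif was found in the windows of E2F1, E2F2, E2F3, CDC6, CDT1, GMNN, MCM2, MCM3, MCM6, MCM7, GINS1, GINS2, PCNA, RFC3, POLA1, POLE, POLE2, TYMS and LIG1. It was not found in those of E2F7, CCNE1, ORC1, ORC6, MCM10, CDC45, RFC4, RRM1, RRM2, TK1 and FEN1, which says only that these letters were not in these windows.

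The stretches around the upstream match nearest to a start site are given below for the 15 genes with a match wholly upstream of it, to show the site and its flanks in genes of different function, and the likeness of the capital letters is set by the search. Each runs 5′ to 3′ on the gene's strand of GRCh38, with the matched letters in capitals and up to 10 bases to each side, and a motif on the opposite strand reads as its reverse complement.
E2F1 (chr20:33686388-33686428, minus strand): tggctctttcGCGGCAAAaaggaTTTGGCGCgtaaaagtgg
E2F2 (chr1:23531258-23531285, minus strand): cggcacgacgTTTGGCGCtaaaaaaaaa
E2F3 (chr6:20401816-20401843, plus strand): tgaaaagccgGCGGGAAAtccgagtttc
CDT1 (chr16:88803744-88803771, plus strand): cagggcgcccGCGGGAAAtttggcggga
GMNN (chr6:24775323-24775350, plus strand): ctgggtcggtTTTGGCGCgctctcactt
MCM3 (chr6:52284899-52284926, minus strand): ggatggtacgTTTCCCGCcaccgcgggg
MCM6 (chr2:135876512-135876543, minus strand): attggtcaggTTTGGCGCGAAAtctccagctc
MCM7 (chr7:100101398-100101416, minus strand): gggggcgacgTTTCGCGCc
GINS2 (chr16:85688968-85688995, minus strand): tctcgccgtgGCGGGAAAacggcggccg
PCNA (chr20:5126664-5126691, minus strand): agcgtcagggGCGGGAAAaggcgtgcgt
RFC3 (chr13:33818084-33818111, plus strand): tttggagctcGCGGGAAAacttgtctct
POLA1 (chrX:24693771-24693798, plus strand): tcatcacaggGCGCCAAAcgcgcgtccg
POLE (chr12:132687343-132687370, minus strand): gggtgggagcGCGCCAAAtttctcccct
TYMS (chr18:657604-657631, plus strand): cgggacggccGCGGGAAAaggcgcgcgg
LIG1 (chr19:48170441-48170468, minus strand): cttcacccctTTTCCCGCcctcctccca

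Of the 26 matches, 20 lay wholly upstream of a start site, with their bases between 2 and 187 bases from it. For 10 of the 15 genes with such a match it began within 60 bases of the start. E2F1, MCM2, MCM3, MCM6 and MCM7 had more than 1 match, and in E2F1 the pair within the stretch shown lay in opposite orientation, pointing away from each other. MCM6 carried the overlapping pair of its printed stretch and another pair of the same letters farther upstream. In CDC6, MCM2, GINS1 and POLE2 the matches lay at or after the start.

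**Figure D1:**
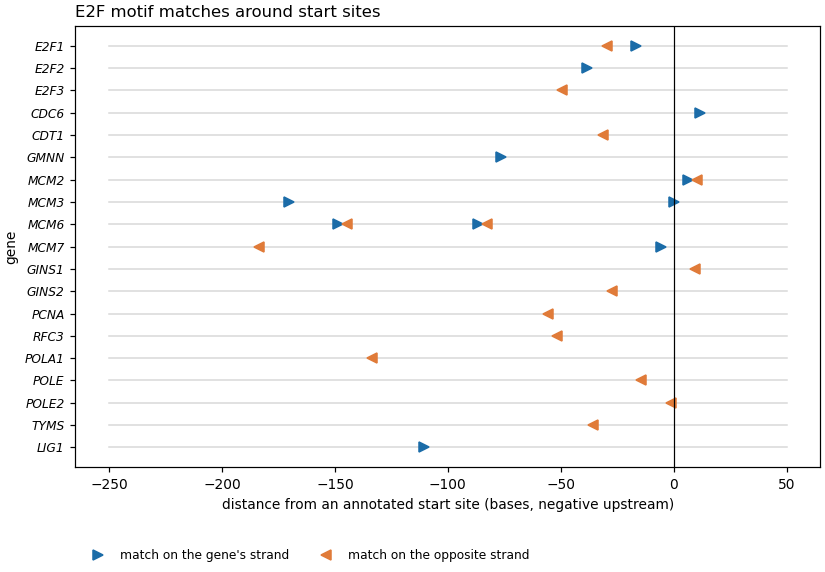
Positions of the 26 E2F motif matches in the promoter windows of the 19 genes that held one, in bases from an annotated start site (negative upstream). Each triangle is 1 match, pointing right on the gene's strand and left on the opposite strand, and matches gather in the 60 bases before the start.

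Other promoter elements were searched in the same windows on both strands. CCAAT, the box bound by NF-Y, was present in 20 of the 30 genes (66.7%) and in 39.7% of all genes with a window. GGGCGG, the GC box bound by Sp1, was present in 23 of the 30 genes (76.7%) and in 48.3% of all. TTTGAA, the cell cycle homology region known from late cell-cycle genes, was present in 2 of the 30 genes (6.67%) and in 18.2% of all. Among the 44 genes of the pathway list with a window, the shares were 50% for CCAAT, 81.8% for GGGCGG and 13.6% for TTTGAA. The GC box was thus no less common there than in the 30 genes. A match is a description of letters and was not tested as a binding site. The 19 genes with the E2F motif had a median level of 104 TPM and a range of 8.98 to 1011 TPM. The 11 genes without it had a median of 139 TPM and a range of 36.4 to 658 TPM, so both sets spread widely and overlapped.

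The 34 genes had a median level of 107 TPM, against 12.3 TPM for the 17148 genes that reached 10 counts in each library and had an exon length, and 16.5 TPM for the 13715 protein-coding genes among them. Of the 34, 33 lay above this median and 19 lay in the top 10% of genes, which began at 92.8 TPM. PCNA at the top and POLA1 at the bottom were 113-fold apart. The genes were ordered by level from the union of exons. The first 5, PCNA, TK1, FEN1, TYMS and MCM3, each lay above the next with no overlap between the ranges of their 2 libraries. Of the 33 neighbouring pairs in the order, 20 did not overlap and 13 did. E2F1 overlapped MCM7, and MCM4, MCM6, RRM1, MCM5 and CDT1 formed a run in which each overlapped the next. RFC4, CDC6 and GINS2 formed a second run, MCM10, POLE, E2F2 and ORC6 a further one, and GINS1, E2F3, E2F8 and CCNE2 the lowest, above POLA1.

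**Figure D2:**
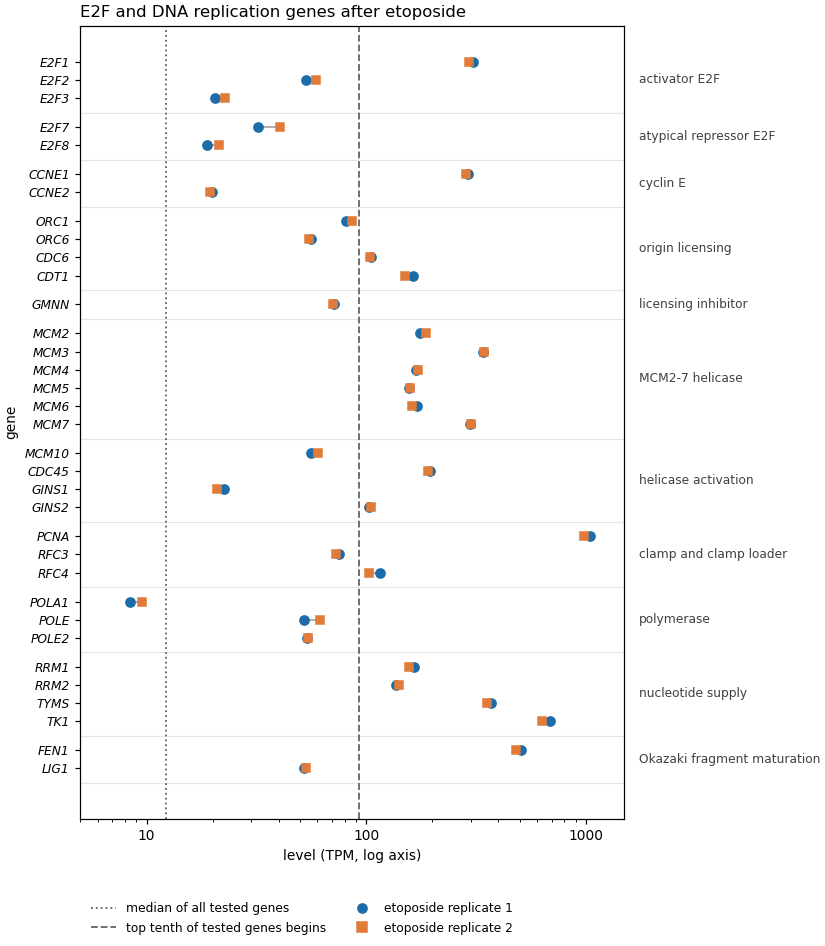
Level of each of the 34 genes in etoposide replicate 1 (circles) and replicate 2 (squares) in TPM on a log axis, grouped by role. The dotted line is the median of all tested genes at 12.3 TPM and the dashed line, at 92.8 TPM, is where their top 10% begins; 33 of the genes lie to the right of the dotted line.

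Among the E2F factors of the set, E2F1 stood far above the others. E2F1 (ENSG00000101412), at chr20:33675477-33686385 on the minus strand of GRCh38, had 5149 and 3211 counts, or 307 and 294 TPM. E2F2, the second activator, had 53.0 and 59.0 TPM, and E2F3, the third, had 20.6 and 22.7 TPM. E2F1 was 5.79 and 4.99 times E2F2 in the 2 libraries and 14.9 and 13.0 times E2F3. The atypical repressors were also low, with 32.3 and 40.6 TPM for E2F7 and 18.8 and 21.4 TPM for E2F8. E2F3 and E2F8 overlapped, while E2F7 was above both in each library. Of the family members outside the 34 genes, E2F4, a factor that mostly represses in resting cells, had 112 and 115 TPM, E2F6, which represses without binding pocket proteins, 47.2 and 43.6 TPM, and E2F5, of which 18.8% of the exon bases are shared with genes on the opposite strand, 6.98 and 6.12 TPM. E2F1 was thus 2.75 and 2.56 times the next member, and the 8 members spanned 45.9-fold. With the longest transcripts E2F1 was 1.93 times E2F4 and the span was 38.6-fold.

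The cyclin E genes were unequal in the same libraries. CCNE1 (ENSG00000105173), at chr19:29811991-29824312, had 4456 and 2830 counts, or 290.5 and 284 TPM. CCNE2, at chr8:94879770-94896678, had 545 and 348 counts, or 19.9 and 19.5 TPM, and CCNE1 was 14.6 and 14.5 times higher. The exact 95% interval of the smaller CCNE2 count, 312 to 387, is the widest relative to its count among the 34 genes and covers counting error only. Exons of INTS8 and 1 other gene on the opposite strand cover 37.1% of the exon bases of CCNE2, and the strand setting of the counting is not given in the sources used here, so its level is uncertain.

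Origins are licensed when the origin recognition complex (ORC), CDC6 and CDT1 load the MCM2-7 helicase on DNA, and geminin, the product of GMNN, blocks CDT1 until mitosis. CDT1 (ENSG00000167513) had 164 and 150.3 TPM and CDC6 (ENSG00000094804) had 105 and 104 TPM. GMNN had 71.3 and 70.6 TPM, below CDT1 by a factor of 2.30 and 2.13, or of 1.17 when length was taken from the longest transcript. ORC1, the subunit that is degraded in S phase, had 80.8 and 86.3 TPM, and ORC6 had 56.3 and 54.7 TPM. The other ORC genes were lower, from 9.23 TPM for ORC4 and 12.6 TPM for ORC2 to 15.1 TPM for ORC5 and 24.3 TPM for ORC3. ORC1 was 6.34 and 6.96 times ORC2, and the 6 subunits spanned 9.05-fold. With the longest transcripts ORC6 was highest and the span 10.6-fold.

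The 6 subunits of the MCM2-7 ring, which the helicase holds in equal number, lay close together and high. MCM3 (ENSG00000112118, chr6:52264014-52284881) was the highest with 7712 and 5066 counts, or 339 and 343 TPM, and MCM7 followed with 296 and 301 TPM. MCM2 had 177 and 188 TPM, MCM4 168 and 173 TPM, MCM6 170.1 and 161 TPM, and MCM5 156 and 159 TPM. The ratio of the highest to the lowest subunit was 2.17 and 2.16 in the 2 libraries, against 2.68 on average for the 5 subunits of the clamp loader, 4.78 for GINS and 9.05 for the ORC. With lengths from the longest transcripts the ratio was 2.63, with MCM7 highest and MCM6 lowest, against 3.02 for the clamp loader, 3.31 for GINS and 10.6 for the ORC. By exon union the 3 ribonucleotide reductase genes spanned less than MCM2-7, at 1.45-fold on average. Polymerase epsilon spanned 4.66-fold and polymerase alpha with primase 9.78-fold. With the longest transcripts these 3 spans were 2.76, 2.78 and 5.56. An antisense gene covers 23.6% of the exon bases of MCM2, and AP4M1 on the opposite strand and the microRNA gene MIR93 share 8.49% of those of MCM7.

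The loaded helicase becomes active when CDC45 and the 4 GINS proteins join it, with the help of MCM10. CDC45 (ENSG00000093009) had 195 and 192 TPM, within the range of the MCM2-7 subunits. MCM10 had 56.0 and 60.6 TPM and was 0.317 and 0.322 times MCM2. GINS2 had 103 and 105 TPM, but GINS1 had only 22.6 and 21.0 TPM, although the proteins are partners in 1 complex. The remaining partners were in between, at 23.3 and 25.0 TPM for GINS3 and 61.5 and 71.4 TPM for GINS4, which shares 23.4% of its exon bases with opposite-strand genes. GINS2 was 4.58 and 4.99 times GINS1 by exon union and 3.29 times by the longest transcript, under which GINS3 was lowest.

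**Figure D3:**
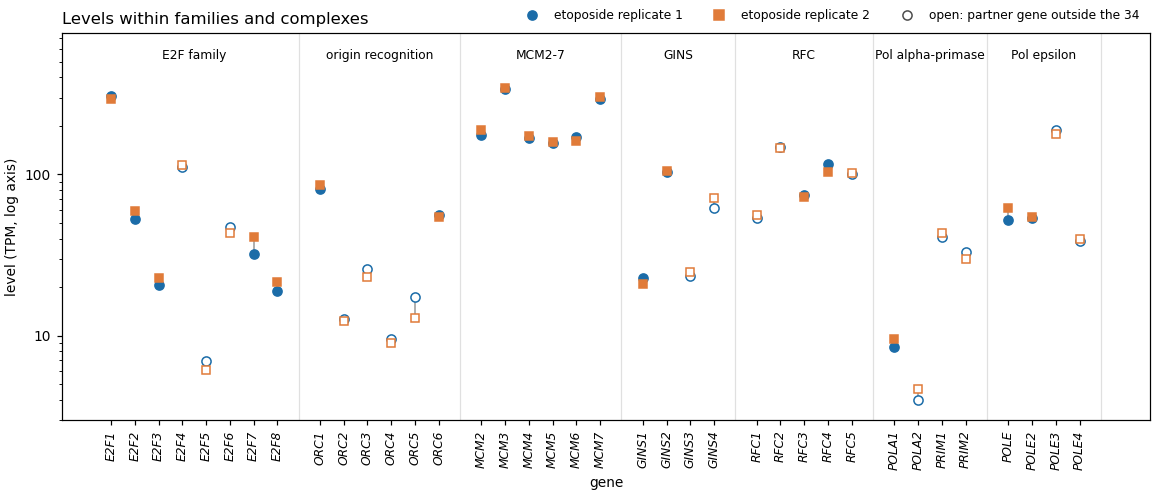
Levels of the E2F family and of the subunits of 6 replication complexes in TPM on a log axis, in etoposide replicate 1 (circles) and replicate 2 (squares). Filled symbols are genes of the set of 34 and open symbols are partner genes outside it; the MCM2-7 subunits span 2.17-fold on average and the E2F family 45.9-fold.

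PCNA, the sliding clamp that holds polymerases on DNA, was the most abundant of the 34 transcripts per length. PCNA (ENSG00000132646, chr20:5114953-5126626) had 9103 and 5580 counts, or 1011 ± 42.5 TPM (SD, n = 2), and 99.5% of the tested genes were lower. RFC4 and RFC3, subunits of the loader that opens the clamp, had 116 and 103 TPM and 74.9 and 72.6 TPM. PCNA was 8.97 and 9.51 times RFC4, or 4.60 times with the longest transcripts. Of the other loader subunits, RFC2 had 147 and 145 TPM, RFC5 100.4 and 102 TPM, and RFC1 53.4 and 55.8 TPM, so the 5 subunits spanned 2.68-fold.

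The 3 polymerase genes of the set lay between 8.98 and 57.1 TPM, all below the median of the set. POLA1, the catalytic subunit of polymerase alpha that extends primers, had 817 and 601 counts, or 8.43 and 9.53 TPM, and was the 1 gene of the set below the median of all tested genes. Its annotated exons sum to 15547 bases and its longest transcript to 5765 bases, and with that transcript its level was 18.2 TPM. Its partner POLA2 was lower still at 3.96 and 4.66 TPM, or at 10.1 TPM with its longest transcript, while the primase genes PRIM1 and PRIM2 had 42.1 and 31.4 TPM on average. Other genes share 21.3% of the exon bases of POLA2 and 19.1% of those of PRIM1. POLE, the catalytic subunit of the leading-strand polymerase epsilon, had 52.3 and 61.9 TPM and its partner POLE2 had 53.8 and 54.3 TPM. The ratio of POLE to POLE2 was 0.972 in replicate 1 and 1.14 in replicate 2, so their order changed between the libraries. The small subunits POLE3 and POLE4 had 183 and 39.3 TPM on average.

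The 4 genes of nucleotide supply in the set were in the top 10%. TK1 (chr17:78174091-78187233), the cytosolic thymidine kinase of the salvage pathway, had 7867 and 4730 counts, or 684 and 632 TPM, second to PCNA. TYMS, the thymidylate synthase of the de novo pathway, had 372 and 356 TPM, and TK1 was 1.84 and 1.78 times higher. Exons of ENOSF1 and TYMSOS on the opposite strand cover 47.9% of the exon bases of TYMS, and what this did to its count was not tested. The large subunit gene of ribonucleotide reductase, RRM1, had 165 and 157 TPM and the S-phase small subunit gene, RRM2, 137 and 141 TPM. This order turned with the longest transcripts, where RRM1 was 0.622 times RRM2. RRM2B had 109 and 113 TPM, below RRM2 by 1.26-fold and 1.25-fold, or by 2.76-fold with the longest transcripts.

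Lagging-strand fragments are trimmed by the flap endonuclease FEN1 and sealed by DNA ligase I, the product of LIG1. FEN1 (chr11:61792911-61797238) had 6969 and 4288 counts, or 509 and 481 TPM, the third-highest level of the set by exon union. LIG1 had 52.2 and 53.2 TPM, and FEN1 was 9.74 and 9.04 times higher, or 3.88 times with the longest transcripts. Exons of LIG1 sum to 11348 bases and its longest transcript to 4302 bases.

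For 30 of the 34 genes the definition of gene length moved the mean level by more than the SD of the 2 libraries. With the longest transcript in place of all exons, 16 of the 34 genes were higher and 18 lower, from 0.753 times for E2F1 to 2.03 times for POLA1. POLA1, LIG1, RRM2, ORC6 and RFC4 were the 5 genes that moved by more than 1.5-fold, all upward. PCNA and TK1 were first and second under either definition, and E2F1 went from the sixth to the tenth place at 227 TPM. The places below TK1 changed too. With the longest transcripts TYMS at 411 TPM stood above FEN1 at 406 TPM, and MCM7 at 361 TPM above MCM3 at 292 TPM. Pseudogenes named after 7 of the genes are in GENCODE, 13 in all, and these held at most 0.115% of the counts of the parent gene.

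**Figure D4:**
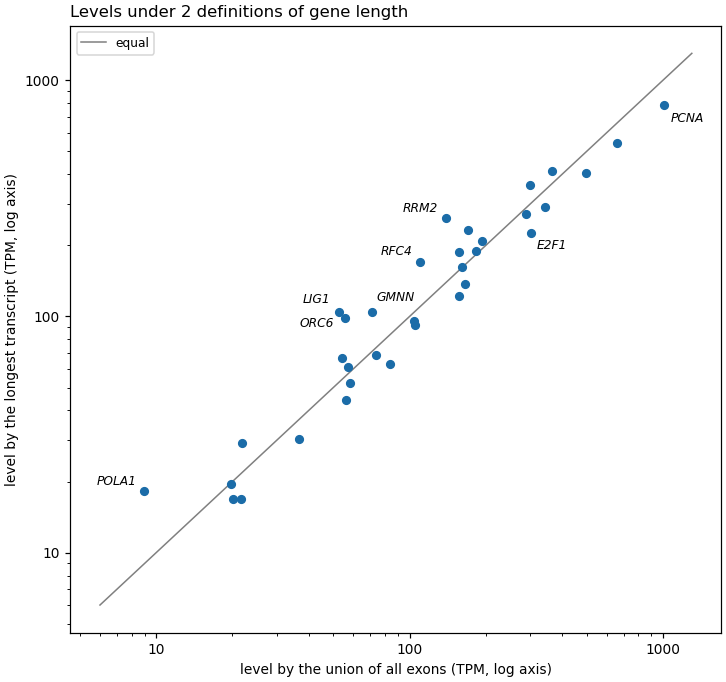
Mean level of each of the 34 genes in TPM by the union of all exons (horizontal) and by the longest annotated transcript (vertical), both on log axes, with the line of equality. POLA1, LIG1, RRM2, ORC6 and RFC4 lie over 1.5-fold above the line, and E2F1 is the gene farthest below it at 0.753 times.

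The 2 libraries were compared gene by gene by the log2 ratio of normalized counts, replicate 1 over replicate 2, with an exact 95% interval for counting error. This compares 2 libraries of 1 condition and no treatments. The ratios of the 34 genes lay between −0.27 for E2F7 and 0.23 for RFC4. None of the 34 was over 1.25-fold apart, while 22.9% of the 17207 tested genes were, and 3.63% of the 7447 genes that had at least 348 counts in both libraries, the smallest count among the 34. Against genes above this floor of counts the difference in this share was therefore small, and depth was not matched beyond the floor.

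Within this narrow spread more of the 34 genes were higher in replicate 1 than in replicate 2. The same was so for all genes with at least 348 counts and for the pathway list described below, so this was not particular to the set. The interval lay above 0, which means higher in replicate 1, for 12 of the 34 genes (35.3%), against 15.7% of all tested genes and 26.5% of those with at least 348 counts. It lay below 0 for 2 (5.88%), E2F7 and POLE, against 14.0% and 18.4%. The 12 genes were RFC4, CDT1, TK1, GINS1, PCNA, FEN1, MCM6, RRM1, TYMS, E2F1, CCNE1 and CDC45. The split of 12 and 2 was 9 and 3 with total counts as the scale, where CCNE1, CDC45 and GINS1 no longer and E2F2 newly had an interval that excluded 0, 16 and 2 with DESeq2's size factors, and 17 and 2 with TMM over all genes with at least 1 count in either library. A change of scale shifts the ratios of all genes together, and the shares over all tested genes were taken with the first TMM scale only. These other splits therefore have no background beside them and are no result about the 34 genes. With the first TMM scale, the median log2 ratio was 0.062 for the 34 genes, −0.00037 for all tested genes and 0.023 for those with at least 348 counts.

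TK1 gave a log2 ratio of 0.18 with an interval from 0.13 to 0.23, and PCNA gave 0.15 with an interval from 0.10 to 0.20. E2F7 gave −0.27 with an interval from −0.39 to −0.15, and POLE gave −0.18 with an interval from −0.25 to −0.11. Genes with short transcripts leaned more towards replicate 1 than those with long ones. The 17 genes with the shorter longest transcripts had a median ratio of 0.11 and the 17 with the longer ones a median of 0.026. Across the 34 genes, which share the same libraries and are not replicates, the Spearman rho of the log2 ratio with exon length was −0.65. It was −0.49 across the 7444 genes with at least 348 counts and an exon length, and −0.16 across all 17148. The part of transcript length in the differences between the libraries was not tested.

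**Figure D5:**
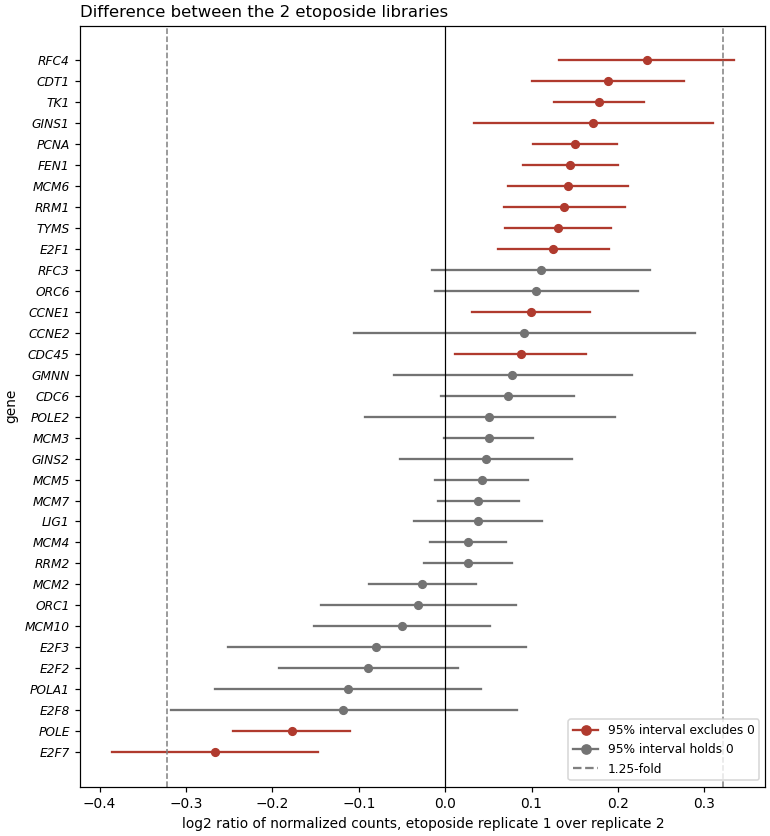
Log2 ratio of TMM-normalized counts in etoposide replicate 1 over replicate 2 for each of the 34 genes, with exact 95% intervals for counting error. Red genes have intervals that exclude 0 (12 above and 2 below), and all points lie inside the dashed lines at 1.25-fold.

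The rest of the pathway was described from a list of 56 further genes for E2F partners, kinases, ORC, helicase activation, the clamp loader, polymerases, single-strand binding, fork protection, nucleotide supply, fragment maturation and chromatin assembly. All 56 reached 10 counts in each library. Their median level was 47.6 TPM, with 48 above the median of all tested genes and 18 in the top 10%, so the list stood between all tested genes and the set of 34. Its highest members were TFDP1, the dimer partner of E2F factors, with 254 and 241 TPM, RECQL4, a helicase needed for origin firing, with 233 TPM in each library, and DTYMK, the thymidylate kinase, with 208 and 193 TPM. Its lowest were POLD4, a small subunit of polymerase delta, with 1.10 and 1.05 TPM, RNASEH2B, a subunit of ribonuclease H2, with 3.73 and 3.39 TPM, and POLA2. Both ends of this ranking depended on the gene length. With the longest transcripts DTYMK was first at 333 TPM and TFDP1 second at 265 TPM, while POLD4 at 1.38, E2F5 at 5.87 and RNASEH2A at 6.01 TPM were lowest and RNASEH2B was at 9.66 TPM. RNASEH2A had only 50 and 48 counts and POLD4 21 and 13. Other genes on the same strand share 53.3% of the exon bases of RNASEH2A and 21.3% of those of POLD4. What this did to their counts was not tested, so these low levels are uncertain. By role, the median was highest for nucleotide supply at 119 TPM and the clamp loader at 101 TPM, and lowest for the origin recognition genes at 13.8 TPM. In the set of 34, the median was highest for fragment maturation at 274 TPM, from FEN1 and LIG1 alone. Nucleotide supply had a median of 263 TPM, the MCM2-7 helicase 176 TPM and the atypical repressors, the lowest, 28.3 TPM. Between the libraries, the interval for the pathway list lay above 0 for 20 of the 56 genes (35.7%), against 15.7% of all tested genes. It lay below 0 for 7 (12.5%), against 14.0%, and 3 (5.36%) were over 1.25-fold apart, against 22.9%. Among genes with at least the smallest count of the 34 in both libraries, these shares were 26.5%, 18.4% and 3.63%. The pathway list also holds genes below that count, such as POLD4 and RNASEH2A, so depth was not matched in either comparison. The median log2 ratio of the 56 genes was 0.069, close to that of the 34 genes.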

How the data were processed

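Per the labels, the submitters' processing notes and the methods of the study, poly-A RNA of U2OS cells was sequenced as paired-end reads, which the authors aligned to GRCh38 with HISAT2 2.1.0 and counted per Ensembl gene with featureCounts of Subread 2.0.0. The authors deposited raw counts with no normalization, 1 table per library. Strand and multi-mapping settings and the annotation release are not given in the sources used here. Groups were taken from the sample titles.

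The 34 genes and the other lists were chosen with earlier results of these data known. Every gene of the set was named, with its partners by complex or family and the 3 highest and 3 lowest of the pathway list. Symbols, positions and lengths were from GENCODE release 44, which matched 60357 of 67140 identifiers, and the counts without a length were 0.0411% and 0.0445% of the totals. TPM was computed from the counts and the union of exons. Genes that reached 10 counts in each etoposide library were tested. Library ratios used edgeR 4.0.16 TMM factors (R 4.3.3) over these genes and exact binomial intervals (Clopper-Pearson, scipy 1.17.1, Python 3.11.15). The intervals cover counting error only. They were tested on simulated counts that held counting error alone, which is what they assume, so that test cannot show how well they hold here. The spread between the etoposide libraries beyond counting error, which edgeR names the biological coefficient of variation, was 7.83%. Whether it is biological or technical cannot be told from these 2 libraries. DESeq2 1.42.0 size factors, total count, upper-quartile scaling, another length, another denominator, another filter, other motif settings and each library alone were the alternatives. Control and adriamycin tables served only to see which genes they list.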

Additional observations from a re-analysis of the deposited data

How the results depend on the processing

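With the longest transcript as the gene length, the median level was 114 TPM for the 34 genes in place of 107 and 51.3 TPM for the 56 pathway genes in place of 47.6, and the ratio across MCM2-7 was 2.63 in place of 2.17. With protein-coding genes alone as the denominator these medians were 118 and 52.4 TPM, because the denominator is smaller. Each etoposide library alone gave medians of 105 to 111 TPM for the 34 genes, 45.1 to 46.8 TPM for the pathway genes and a ratio of 2.16 to 2.17 across MCM2-7. The number of the 34 genes in the top 10% was 19 or 20 under these settings and 28 when genes with at least 1 count in either library were ranked too, since that adds low genes. The E2F motif was in 25 of 30 genes in its form of 7 letters, where 15.3% of all genes held it, and in 15 of 30 in the upstream bases alone, where 3.40% did. Total-count scaling ended the calls between libraries for 3 of the 34 genes and added 1, and DESeq2's size factors added 4. The shares over all tested genes under these scales were not taken. No paired analysis was possible because the 34 genes were analysed in 1 group. Depth limits the ratio between libraries for genes of low count such as CCNE2, whose interval ran from −0.11 to 0.29 around a log2 ratio of 0.091.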
